A study of Homo sapiens with 27 samples.

Results

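Serine synthesis and the folate cycle that carries its carbon were followed in the RNA-seq data of U937 cells, a human myeloid leukaemia cell line. The set held 9 enzyme genes, PHGDH, PSAT1, PSPH, SHMT1, SHMT2, MTHFD1, MTHFD1L, MTHFD2 and ALDH1L2, chosen by name for their place in the pathway, out of 57905 gene identifiers in the table. All 9 symbols were matched to an identifier. The groups were control U937 cells (U937-CT) and U937 cells given matrine, a plant alkaloid, at 0.8 mg/ml. Matrine was given for 30 min (U937-MAT-30min) or 24 h (U937-MAT-24h), and each group had 3 libraries. All cells were grown in RPMI medium with fetal bovine serum, and the study names ddH2O as the vehicle control. Both treatment times share these controls, whose time in culture is not stated, so 24 h of matrine and 24 h of culture cannot be told apart. U937 is a single cell line, and the study's HL-60 and K562 cells are not analysed here.

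Cells make serine from a glycolytic intermediate in 3 steps, catalysed by PHGDH, PSAT1 and PSPH. Serine hydroxymethyltransferase then passes a carbon of serine to tetrahydrofolate and leaves glycine, with SHMT1 acting in the cytosol and SHMT2 in mitochondria. The MTHFD enzymes interconvert the carbon-loaded folates, MTHFD2 and MTHFD1L in mitochondria and MTHFD1 in the cytosol, and mitochondria export formate that the cytosol loads back onto folate for purine and thymidylate synthesis. Proliferating leukaemia cells draw heavily on this cycle.

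Total counts per library lay between 17314931 and 21930018, and replicates within each group spread beyond sampling noise, with a chi-square per degree of freedom of 2.14 to 11.9. Among 10 markers of myeloid cells, 8 were above 1 FPKM (fragments per kilobase of exon scaled to the library's mapped fragments, the level scale used here) in the control. MPO and CD68, both well-known myeloid markers, were at 0.313 and 0.557, and MPO was at 1.84 at 24 h. The summed FPKM of these markers was 1289 to 1448 in the control, 1370 to 1385 at 30 min and 1753 to 1880 at 24 h, so it was higher in every 24 h library, and its part in the results below was not tested. The sum follows ELANE, whose mean was 885.1 FPKM in the control and 1378 at 24 h. CD4 (28.59 and 43.67), PTPRC (16.44 and 24.2), FCGR1A (3.12 and 3.74) and CD68 (0.557 and 0.72) also had higher means at 24 h. LYZ (292.3 and 243.6), SPI1 (67.62 and 55.97), CEBPA (40.96 and 32.86) and CD33 (14.74 and 14.5) had lower means at 24 h. The T cell, epithelial and fibroblast lists summed to at most 0.2 FPKM in any library. The B cell list summed to 4.33 to 5.41, with its marker MS4A1 at 0, and the erythroid list to 2.4 to 4.12. Nearly all of the erythroid sum was KLF1, with means of 3.12, 3.25 and 3.11 FPKM in the 3 groups, and the globin gene HBG1 was at 0.

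The promoter windows of the genes whose mRNA was called higher or lower at 24 h, as given below, are shown here. They come from RefSeq on GRCh38.p14 and run from 250 bases before to 50 bases after an annotated start. The window table matched 6 of the 9 genes; PSPH, SHMT2 and ALDH1L2 have no entry. Capitals mark CACGTG, the E-box letters read by MYC with its partner MAX, and TGATGNAA, a core of the composite element read by ATF4, each searched on both strands. The windows are chr1:119711684-119711983 (plus strand) for PHGDH, chr17:18363501-18363800 (minus strand) for SHMT1, chr14:64388103-64388402 (plus strand) for MTHFD1 and, for MTHFD1L, the first of 4 windows in the table, chr6:150866236-150866535 (plus strand).
PHGDH: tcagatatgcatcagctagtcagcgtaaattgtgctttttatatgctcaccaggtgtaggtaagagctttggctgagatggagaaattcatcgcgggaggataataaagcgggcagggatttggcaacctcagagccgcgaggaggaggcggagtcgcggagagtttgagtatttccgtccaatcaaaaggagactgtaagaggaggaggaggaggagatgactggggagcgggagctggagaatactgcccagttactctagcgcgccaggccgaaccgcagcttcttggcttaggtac
SHMT1: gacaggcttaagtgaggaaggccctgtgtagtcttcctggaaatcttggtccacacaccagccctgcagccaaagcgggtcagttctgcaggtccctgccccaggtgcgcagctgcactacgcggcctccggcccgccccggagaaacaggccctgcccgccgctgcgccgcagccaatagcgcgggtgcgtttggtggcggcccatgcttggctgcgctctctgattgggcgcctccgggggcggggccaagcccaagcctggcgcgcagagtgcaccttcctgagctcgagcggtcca
MTHFD1: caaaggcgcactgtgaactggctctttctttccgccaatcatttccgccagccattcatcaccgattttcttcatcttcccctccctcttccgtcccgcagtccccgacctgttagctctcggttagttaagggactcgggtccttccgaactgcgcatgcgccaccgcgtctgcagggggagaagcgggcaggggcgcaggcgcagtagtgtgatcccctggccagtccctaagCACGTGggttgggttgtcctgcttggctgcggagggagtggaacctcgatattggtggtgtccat
MTHFD1L: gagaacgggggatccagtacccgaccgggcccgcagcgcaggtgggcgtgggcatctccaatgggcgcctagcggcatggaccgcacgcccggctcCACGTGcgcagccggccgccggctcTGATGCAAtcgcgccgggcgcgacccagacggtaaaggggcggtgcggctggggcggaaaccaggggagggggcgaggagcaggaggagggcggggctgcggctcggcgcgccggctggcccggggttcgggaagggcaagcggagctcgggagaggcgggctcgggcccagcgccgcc

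CACGTG was in the window of MTHFD1, with its first base at -15 from the start, and in that of MTHFD1L, at -154. In MTHFD1L 3 overlapping windows hold this same site and the fourth window holds none. By gene, 2 of the 6 with a window had CACGTG, against 8.77% of the 27305 genes of the table. By window it was 4 of 9, against 7.26% of all 35116. TGATGNAA was in 1 of the 6 genes, MTHFD1L, at -129 in the window shown, and in the same 3 windows, against 4.46% of all genes and 3.62% of all windows. The 300 bases of PHGDH, PSAT1, SHMT1 and MTHFD2 held neither string of letters. Both genes with CACGTG were called lower at 24 h, as given below, and MTHFD1L, with TGATGNAA, is among them. SHMT2 has no window, and genes outside the members were not searched one by one. A link between these letters and the direction of change was not tested. A match of letters is a description of the sequence, and binding was not measured in these data.

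In the control the enzymes spanned a wide range of mRNA levels per length. By FPKM SHMT2 was highest, followed by PSAT1, MTHFD1, PHGDH, MTHFD2, MTHFD1L, PSPH and SHMT1. The 3 control libraries of each gene did not overlap those of the next. ALDH1L2, a mitochondrial formyltetrahydrofolate dehydrogenase that releases the carbon as CO2, was nearly absent. The order at 30 min was the same, except that the libraries of PSAT1 and MTHFD1 overlapped. At 24 h PHGDH and PSAT1 led with overlapping libraries at means of 84.58 and 84.55 FPKM, above SHMT2 at 70.7. MTHFD2 passed MTHFD1, and SHMT1 reached the FPKM of PSPH with overlapping libraries. By FPKM the mitochondrial SHMT2, MTHFD2 and the serine-making PHGDH and PSAT1 were therefore the highest members at 24 h. MTHFD1 had moved from the third to the fifth place. These orders depend on the length by which FPKM divides, and counts gave others. In control replicate 1 PHGDH had 5145 counts against 2772 for PSAT1, and SHMT1 had 1036 against 695 for PSPH.

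**Figure D1:**
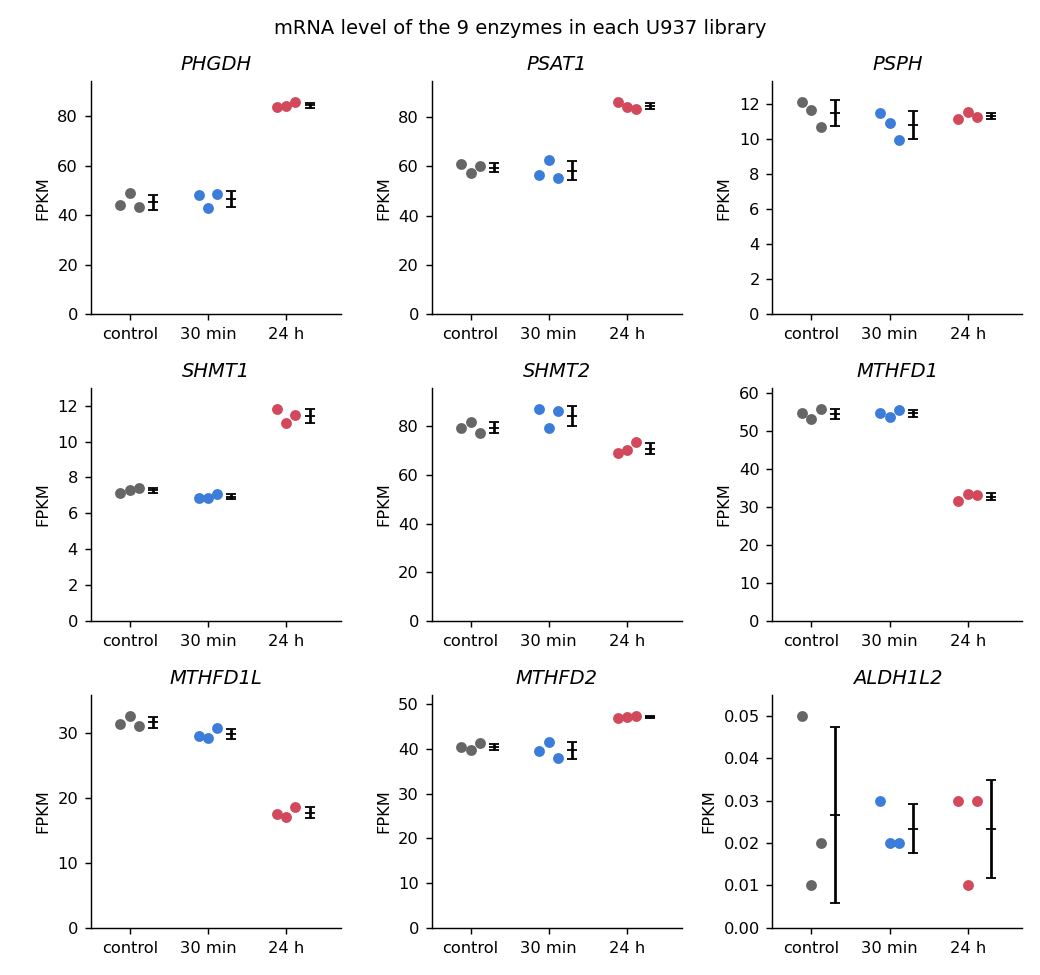
FPKM of each of the 9 enzymes (vertical axis, from 0, with its own scale in each panel) in the control, 30 min and 24 h libraries. Points are single libraries and bars the mean ± SD (n = 3). The 24 h points of PHGDH, PSAT1, SHMT1 and MTHFD2 lie above both other groups and those of SHMT2, MTHFD1 and MTHFD1L below, while PSPH overlaps.

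The first comparison asked whether matrine changed these mRNAs within 30 min. The 8 genes with a mean above 1 FPKM were tested with edgeR's quasi-likelihood test among 11587 genes, and a gene was called when its adjusted p was below 0.05 and its fold change reached 1.5. No member was called, against 0.544% of all genes tested called lower and 0.0949% called higher. There were 0 members at an unadjusted p below 0.05 with edgeR, with DESeq2 and with limma. The log2 fold changes lay between -0.08 for PSPH and 0.10 for SHMT2, and edgeR's adjusted p between 0.55 and 0.96. The 95% intervals bound each change: the widest, that of PSPH, ran from -0.25 to 0.10, and the interval reaching highest, that of SHMT2, ended at 0.21. The median over the 8 was -0.0151, beside -0.00296 over all genes. All 3 libraries at 30 min lay below the control for SHMT1 and MTHFD1L, 2 of the 8 members, and the other 6 overlapped; over all genes such a separation was found for 8.91% toward lower and 4.89% toward higher values. These p-values measure the spread between the libraries, which may be technical, because the labels do not say that they came from separate cultures.

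At 24 h members were called in both directions. Of the 8 tested members, PHGDH and SHMT1 rose and MTHFD1 and MTHFD1L fell, 2 in each direction, against 14.8% called higher and 11.5% called lower among all 12035 genes tested. An adjusted p below 0.05 at any fold was reached by 7 of the 8, against 63.4% of all genes. The libraries did not overlap the control for 4 members that were higher and 3 that were lower, where 38.7% and 31.0% of all genes separated in these directions. DESeq2 and limma each gave the same counts, 2 lower and 2 higher. The median log2 fold change of the 8 was 0.0412, beside -0.00217 over all genes, with 4 values above 0 and 4 below. In bulk RNA, fewer cells of a type and less RNA per cell cannot be told apart.

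**Figure D2:**
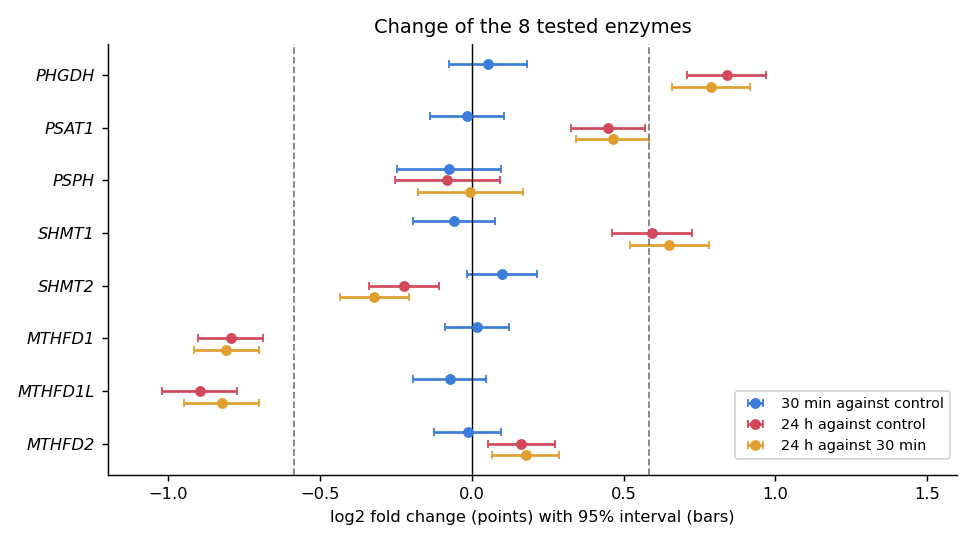
Log2 fold change (horizontal axis) of the 8 tested enzymes with its 95% interval from the edgeR fit, for 30 min against control, 24 h against control and 24 h against 30 min. Dashed lines mark a fold change of 1.5, at a log2 value of 0.585 in either direction; every 30 min interval includes 0, and at 24 h PHGDH and SHMT1 lie to the right of the dashed line and MTHFD1 and MTHFD1L to the left.

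PHGDH, 3-phosphoglycerate dehydrogenase, catalyses the committed step of serine synthesis (ENSG00000092621, chromosome 1 from 119648411 to 119744218, plus strand, of GRCh38 in GENCODE 44). Its FPKM was 44.01, 48.88 and 43.25 in the control, 48.21, 42.89 and 48.80 at 30 min and 83.97, 84.04 and 85.74 at 24 h. The 24 h libraries all lay far above the other 6, which overlapped each other. The 24 h mean was 84.58 ± 1.0 against 45.38 ± 3.05 in the control (SD, n = 3). It rose by 0.84 on the log2 scale (SE 0.06), 1.79-fold, with an adjusted p of 2.8e-10 in edgeR.

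PSAT1, phosphoserine aminotransferase, makes phosphoserine in the following step (ENSG00000135069, chromosome 9 from 78297125 to 78330093, plus strand). Its libraries gave 60.92, 57.39 and 60.26 FPKM in the control, 56.67, 62.79 and 55.47 at 30 min and 86.06, 84.15 and 83.44 at 24 h. The 24 h values again stood above all others, but the difference was smaller than for PHGDH. The log2 fold change was 0.45 (SE 0.06, 95% interval 0.33 to 0.57) and the fold 1.36, below the 1.5 needed for a call, with an edgeR adjusted p of 9.7e-07.

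PSPH, phosphoserine phosphatase, releases serine in the last step (ENSG00000146733, chromosome 7 from 56011051 to 56051604, minus strand). It was at 12.10, 11.68 and 10.69 FPKM in the control, 11.51, 10.92 and 9.97 at 30 min and 11.17, 11.52 and 11.28 at 24 h, so the 3 groups overlapped. The log2 fold change at 24 h was -0.08 with a 95% interval of -0.25 to 0.09 and an edgeR adjusted p of 0.41. A change of 1.5-fold lies outside that interval. Its pseudogene PSPHP1 held 23 to 47 counts per library, and the handling of reads with several mapping places is not given in the sources used here. The other annotated pseudogenes of members held at most 3 counts in any library. The 3 steps of serine synthesis thus differed: the first was called higher, the second was higher without reaching the fold, and the last had no difference detectable at this spread.

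SHMT1, the cytosolic serine hydroxymethyltransferase (ENSG00000176974, chromosome 17 from 18327860 to 18363563, minus strand), had the lowest FPKM of the tested members in the control. Its FPKM was 7.14, 7.31 and 7.41 in the control, 6.85, 6.86 and 7.08 at 30 min and 11.81, 11.03 and 11.47 at 24 h. Every 24 h library was above every other library. SHMT1 rose by 0.59 on the log2 scale (SE 0.06), 1.51-fold, with an edgeR adjusted p of 6.2e-08. The value sits at the threshold on the fold, and its 95% interval of 0.46 to 0.72 spans it. The call was lost at 0.57 without control replicate 1, at 0.58 without 24 h replicate 1, at 0.56 with no filter on low values and at 0.54 with TMM factors from all genes, while the direction held in each. SMCR8, on the opposite strand, shares 2.8% of the SHMT1 exon bases and had a mean of 10.89 FPKM in the control and 10.67 at 24 h.

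SHMT2, the mitochondrial counterpart (ENSG00000182199, chromosome 12 from 57229573 to 57234935, plus strand), had the highest FPKM of the members in the control. It gave 79.28, 81.42 and 77.10 FPKM in the control, 86.93, 79.29 and 85.94 at 30 min and 68.83, 70.06 and 73.22 at 24 h. The 24 h libraries were below all others, whereas those at 30 min overlapped the control. The log2 fold change at 24 h was -0.22 (SE 0.06), a 1.17-fold difference that does not reach a call, with an edgeR adjusted p of 0.0014. NDUFA4L2, on the opposite strand, overlaps 0.7% of its exon bases and went from a mean of 1.49 to 4.44 FPKM. A further antisense RNA there, ENSG00000276727, shares 7.7% of the exon bases and was not analysed here.

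The SHMT2 to SHMT1 ratio within a library, in which scaling between libraries cancels, was 11.1, 11.1 and 10.4 in the control, 12.7, 11.6 and 12.1 at 30 min and 5.83, 6.35 and 6.38 at 24 h. The mitochondrial mRNA therefore stayed the more abundant of the pair per length in all 9 libraries, by a smaller factor at 24 h. The log2 difference from control was -0.82 at 24 h and 0.16 at 30 min, beside SDs of log2 values within groups of 0.0653 and 0.0617. The exact two-sided permutation test gave p = 0.1 for each, the smallest that 3 against 3 libraries allow.

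**Figure D3:**
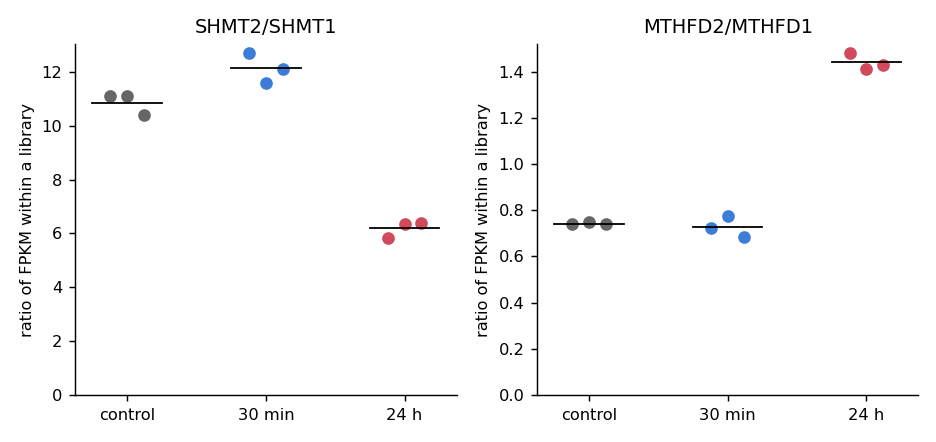
Ratio of FPKM within each library (vertical axis, from 0) of SHMT2 to SHMT1 and of MTHFD2 to MTHFD1 in the control, 30 min and 24 h groups. Points are libraries and lines are means; at 24 h the first ratio is below 6.4 in every library and the second above 1.4.

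MTHFD1, the trifunctional cytosolic enzyme that loads formate onto tetrahydrofolate and interconverts the loaded forms, is ENSG00000100714 on chromosome 14 from 64388031 to 64463457 (plus strand). It stood at 54.71, 53.16 and 55.77 FPKM in the control, 54.66, 53.57 and 55.59 at 30 min and 31.65, 33.41 and 33.18 at 24 h. The first 2 groups overlapped closely and the 24 h libraries were all far lower. MTHFD1 fell by 0.79 on the log2 scale (SE 0.05), 1.73-fold, with an edgeR adjusted p of 3.5e-11. The antisense RNA ENSG00000272909 shares 9.0% of its exon bases and had a mean of 1.00 FPKM in the control and 0.99 at 24 h.

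MTHFD1L, which makes formate in mitochondria for export, is ENSG00000120254 on chromosome 6 from 150865679 to 151101887 (plus strand). Its FPKM was 31.40, 32.68 and 31.09 in the control, 29.53, 29.28 and 30.83 at 30 min and 17.50, 17.04 and 18.66 at 24 h. The 24 h libraries did not reach the lowest of the other 6. It fell by 0.90 on the log2 scale (SE 0.06), 1.86-fold, with an edgeR adjusted p of 4.6e-11. Whether its change or that of PHGDH was the larger depended on the scaling: with library totals alone the log2 values were -0.84 and 0.90.

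MTHFD2, the mitochondrial dehydrogenase and cyclohydrolase upstream of MTHFD1L, is ENSG00000065911 on chromosome 2 from 74186172 to 74217565 (plus strand). It was at 40.42, 39.82 and 41.21 FPKM in the control, 39.50, 41.65 and 37.95 at 30 min and 46.98, 47.20 and 47.39 at 24 h. The 24 h libraries were all slightly above the rest. The log2 fold change of 0.16 (SE 0.05), 1.12-fold, stayed below the fold of a call, with an edgeR adjusted p of 0.011. SLC4A5, on the opposite strand, shares 11.6% of its exon bases and was at 0.13 FPKM or less in every library.

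The MTHFD2 to MTHFD1 ratio was 0.739, 0.749 and 0.739 in the control, 0.723, 0.777 and 0.683 at 30 min and 1.48, 1.41 and 1.43 at 24 h. At 24 h MTHFD2 was thus the more abundant mRNA of the pair per length, and in the other 6 libraries MTHFD1 was. The log2 difference from control was 0.96 at 24 h (exact two-sided permutation p = 0.1, the smallest possible) and -0.03 at 30 min (exact p = 0.7).

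ALDH1L2 (ENSG00000136010, chromosome 12 from 105019784 to 105107643, minus strand) was the only member that did not pass the filter on low values. It was listed at 0.05, 0.01 and 0.02 FPKM in the control, 0.03, 0.02 and 0.02 at 30 min and 0.03, 0.01 and 0.03 at 24 h, from 1 to 9 counts per library. No fold is given, since a difference was not detectable at this depth. NOPCHAP1 and WASHC4 lie across parts of its exons on the opposite strand.

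The direct comparison of 24 h with 30 min asked when the differences arose. It uses the controls only through the shared estimate of the spread, the scaling factors and the choice of genes fitted. The 4 genes called against the control were called in the same directions, in a comparison that uses the same 24 h libraries. MTHFD1 and MTHFD1L were lower by 0.81 and 0.82 and PHGDH and SHMT1 higher by 0.79 and 0.65 on the log2 scale. That is 2 in each direction of 8 tested. Among all 11981 genes tested, 11.3% were called lower and 15.7% higher, and 65.4% had an adjusted p below 0.05 at any fold, against 7 of the 8 members in edgeR. PSAT1 differed by 0.46, SHMT2 by -0.32, MTHFD2 by 0.18 and PSPH by -0.0046. Because the fit is shared, these values are also the difference between the effects at the 2 times, so for 7 members, all but PSPH, the 24 h effect differed from the 30 min effect.

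Around the members, 38 further genes of the pathway are reported, of which 27 passed the filter at 24 h. There, 6 were lower and 6 higher, against the 11.5% and 14.8% of all genes, and the 27 had a median of -0.208 on the log2 scale, which does not cover list members that are not reported here. At 30 min 0 of 26 were called with edgeR, DESeq2 or limma, with 4, 2 and 5 at an unadjusted p below 0.05. SLC25A32, the mitochondrial folate carrier, fell by 1.09 on the log2 scale, GCSH, the lipoyl carrier protein of glycine cleavage, fell by 1.20, and SFXN1, a mitochondrial serine carrier, and the related sideroflexin SFXN2 fell by 0.71 and 0.62. Their relative SFXN3 rose by 1.03, so the sideroflexins were split.

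GART and ATIC, the enzymes of purine synthesis that take up formyl groups from folate, fell by 0.73 and 0.60. That is 2 of 2 in that list, against 11.5% of all genes called lower. The value of ATIC sits at the threshold on the fold: its call was lost with library totals, with limma, with a mean above 5 FPKM, and without control replicate 2 or 24 h replicates 1 or 3, which leaves 1 of 2. AMT, the aminomethyltransferase of glycine cleavage, was at 1.12 on the log2 scale, with means of 0.89 FPKM in the control and 2.01 at 24 h. It passed the filter only through the 24 h libraries, so its call is no support for a higher count, which is 5 without it. CTH, which makes cysteine from serine-derived cystathionine, rose by 0.68.

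The serine and neutral amino acid transporters SLC38A2 and SLC1A4 rose by 0.77 and 0.64, and SDSL, a serine dehydratase-like enzyme, rose by 0.64, a call lost without 24 h replicate 1 or 3. In the same list SLC1A5 differed by 0.01 and SRR, serine racemase, by 0.07. TSR1, on the opposite strand, shares 35.2% of the SRR exon bases, with means of 35.5 FPKM in the control and 16.01 at 24 h. Its part in the SRR value was not tested. In the methionine cycle and transsulfuration list 1 of 7 tested genes, CTH, was called higher, near the 14.8% called higher among all genes. AHCY and MAT2A were at -0.47 and -0.35 without reaching the fold. In the dihydrofolate and thymidylate list TYMS, thymidylate synthase, was at -0.22 and DHFR2 at 0.42, both below the fold of a call. ENOSF1, on the opposite strand, shares 39.9% of the TYMS exon bases, with means of 6.37 FPKM in the control and 8.31 at 24 h. Of the folate transport list, SLC19A1, the plasma membrane folate carrier, was at -0.52 and FPGS at -0.02, while FOLR1, FOLR3 and GGH were listed at 0 in every library.

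**Figure D4:**
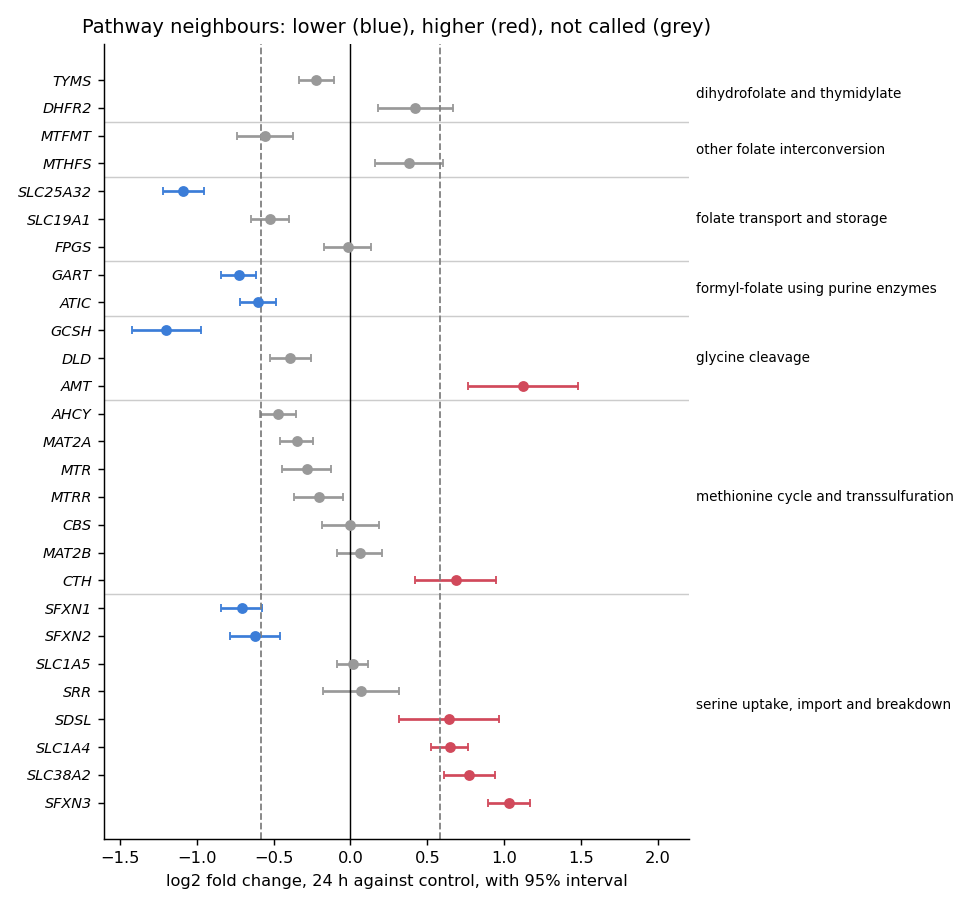
Log2 fold change at 24 h against control (horizontal axis) with its 95% interval from the edgeR fit for the 27 tested pathway neighbours, grouped by role. Blue and red mark the 6 genes called lower and the 6 called higher, grey the rest, and dashed lines a fold change of 1.5; GCSH lies farthest to the left, and AMT, on the right at 1.12, was tested only through its 24 h level.

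The transcription factors most often named as regulators of these genes were read beside them. MYC averaged 207.2 FPKM in the control, 54.08 at 30 min and 43.77 at 24 h, and fell by 1.93 and 2.30 on the log2 scale (edgeR adjusted p = 1.2e-14 and 2.4e-17). ATF4 averaged 150.7, 171.1 and 204.5 FPKM, log2 fold changes of 0.20 and 0.38 (edgeR adjusted p = 0.058 and 1.7e-06) that did not reach the fold of a call. MYC mRNA was thus already low at 30 min, when no enzyme was called, and whether either factor has a part in the 24 h values was not tested.

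Over the 9 libraries, on log2 CPM, the genes most like PHGDH were CAPG and OS9 (Pearson r = 0.999 each), LGALS1 and TRAPPC6A (0.998 each) and GRN (0.997). Those most like SHMT2 were TUBB4B (0.987), EMC4 (0.985), RPL10A, UQCRC1 and EIF3D (0.984 each). For MTHFD2 they were CCSAP, TM9SF2 and CRY1 (0.986 each), AP1S2 (0.983) and MAP1LC3B (0.98). These values follow mainly from the step between 24 h and the other libraries: of 12238 genes, 1044 had r above 0.95 with PHGDH, 258 with SHMT2 and 155 with MTHFD2. Among members, MTHFD1 and MTHFD1L had r = 0.988, PHGDH and SHMT1 0.975, and PHGDH and MTHFD1 -0.975, with all points sharing the same 9 libraries.

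**Figure D5:**
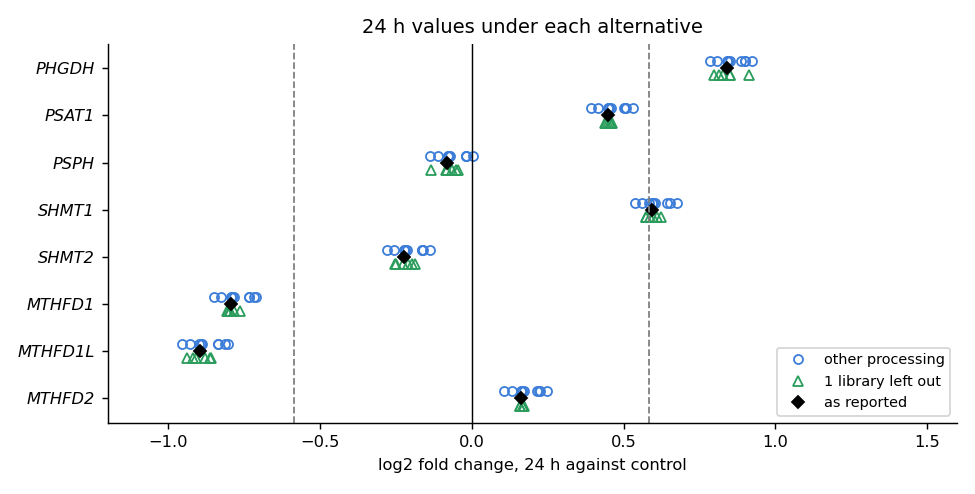
Log2 fold change at 24 h against control (horizontal axis) of the 8 tested enzymes as reported (diamonds), under other processing (circles) and with 1 library left out (triangles). Dashed lines mark a fold change of 1.5; SHMT1 is the one member whose points lie on both sides of a dashed line.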

How the data were processed

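RNA-seq libraries of U937 cells (3 per group), for which the study names both poly(A) selection and removal of rRNA, were paired-end sequenced. The authors trimmed reads with cutadapt (1.9.1), mapped them with HISAT2 (2.0.1) and deposited raw counts per gene from HTSeq (0.6.1). The paper names hg38, the submitters' processing notes GRCh37. The table has no coordinates. Annotation release and strand setting are not given in the sources used here. The authors also deposited FPKM, used here for levels and for the filter. Symbols and positions came from GENCODE 44.

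Counts were tested with edgeR (4.0.16, R 4.3.3), TMM factors and the quasi-likelihood test in 1 fit of 9 libraries, without a replicate block. Genes tested had a mean above 1 FPKM over the 6 libraries compared. Genes were called at a Benjamini-Hochberg adjusted p below 0.05 when the fold change reached 1.5. The procedure was run on simulated data with a fixed spread and few changed genes, unlike the 24 h comparison. That run does not cover calls near the threshold on the fold. SE is the absolute log2 fold change divided by the square root of F, and 95% intervals use edgeR's degrees of freedom. Ratios of FPKM were compared by exact permutation. Alternatives were DESeq2 (1.42.0), limma (3.58.1) on log2(FPKM + 0.1 or 1), other filters, scalings and folds, a replicate block, only the libraries compared, and each library left out. TMM factors from all genes were added after seeing the data. Named were all members, every called pathway neighbour, the 5 genes most like PHGDH, SHMT2 and MTHFD2, overlapping genes and pseudogenes. Uncalled neighbours given with values were chosen after their values were seen. Some genes of the neighbour and marker lists are not reported here, and list counts and medians leave them out. Members and lists were chosen with earlier results of these data known.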

Additional observations from a re-analysis of the deposited data

Results flagged for a closer look

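The effect of matrine at 24 h differed from that at 30 min for 7 of the 8 tested members, all but PSPH. This was read from the edgeR contrast of both times at an adjusted p below 0.05. Of all 11981 genes tested, 65.4% reached the same, so it is not particular to the members. The difference (24 h minus 30 min, log2) was 0.787 for PHGDH, 0.464 for PSAT1, 0.651 for SHMT1, -0.321 for SHMT2, -0.809 for MTHFD1, -0.824 for MTHFD1L and 0.177 for MTHFD2. The pathway neighbours listed next were picked by their 24 h call, made on the same 24 h libraries. Their differences are therefore no further support for those calls, and AMT passed the filter only through its 24 h level. The difference was 0.959 for AMT, 0.931 for SFXN3, 0.751 for SDSL, 0.704 for CTH, 0.676 for SLC1A4 and 0.471 for SLC38A2. It was -1.31 for GCSH, -0.951 for SLC25A32, -0.779 for GART, -0.621 for SFXN1, -0.617 for ATIC and -0.537 for SFXN2. For the regulators it was -0.376 for MYC and 0.185 for ATF4. The controls enter these differences only through the shared estimate of the spread, the scaling factors and the choice of genes fitted.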

How the results depend on the processing

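MTHFD1 and MTHFD1L lower and PHGDH higher at 24 h were called under every alternative run except a fold change of at least 2, where 0 members were called in either direction, at 24 h and against 30 min. With no fold threshold 4 members were higher, in both of these comparisons. Of all genes, 63.4% at 24 h and 65.4% against 30 min had an adjusted p below 0.05 at any fold, both directions together. The number higher at 24 h was 1 with no filter on low values, 1 with TMM factors from all genes (chosen after seeing the data) and 1 to 2 when 1 library was left out. SHMT1 was the gene lost in each. Of the neighbours at 24 h, 2 were lower and 2 higher at a fold of at least 2. With no fold threshold 14 were lower and 8 higher, and 3 were higher with a mean above 5 FPKM, a filter that tests fewer genes. The share of all genes in each direction was not computed at these settings, so these counts are not read as particular to the neighbours. ATIC and SFXN2 were not called, leaving 4 lower, with that filter, library totals or limma at either pseudocount. SFXN2 was lost without 24 h replicate 2, SDSL with TMM factors from all genes, and SDSL and CTH with limma at a pseudocount of 1. Signs turned only in values that were never called. For PSAT1 at 30 min these were 0.00245 with no filter and a range of -0.0471 to 0.0229 with 1 library left out. For MTHFD2 at 30 min they were 0.00432 with no filter and -0.0247 to 0.0216 with 1 library left out, and for PSPH at 24 h 0.00339 with a mean above 5 FPKM. For PSPH against 30 min they were 0.0779 with a mean above 5 FPKM, 0.0709 with library totals, 0.07 and 0.0646 with limma at pseudocounts 0.1 and 1, and -0.0664 to 0.0561 with 1 library left out. The causes were not tested. With the replicate number as a block, 2 members were lower and 2 higher at 24 h, as without it. No pairing of samples by number was seen: deviations of same-numbered libraries correlated at -0.13 to 0.09, and 2 of 9 libraries correlated best with their own number. With 3 libraries per group this check cannot exclude a pairing, and the labels do not say whether same-numbered libraries were handled together. Depth limits ALDH1L2, with 1 to 9 counts.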
